A study of Mus musculus with 5 samples.

Results

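The 500 largest clusters of H3K27ac peaks away from promoters in mouse muscle stem cells (MuSCs) are described here, together with the JunB peaks inside them and the genes around them. They were chosen by their measured H3K27ac peak lengths: peaks on chromosomes 1 to 19 and X that lay more than 3 kb from every annotated transcription start site (TSS) were joined into a cluster where the gap was at most 12.5 kb, the peak lengths of each cluster were summed, and the 500 clusters with the largest sums were kept, out of 16290 distal clusters in all. These clusters are called large clusters below. MuSCs are the resident stem cells of skeletal muscle, labelled as MuSC from mouse muscle. H3K27ac was profiled in 1 MuSC library whose age is not stated, and JunB was profiled in 3 libraries of young mice (young 1, young 2 and young 3) and 1 library of aged mice, each by CUT&RUN, an assay that sequences the short DNA fragments cut loose by a nuclease held at an antibody. The labels name no strain, genotype, sex, age in months or treatment for these libraries, the study's design text names DMSO and MVC treatment where the sample titles name young and aged mice, and the titles were followed. The study tied JunB to enhancers of MuSCs during ageing, and the comparison made here asks how often, where and with which DNA sequence JunB peaks fell inside the large clusters.

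Acetylation of lysine 27 of histone H3 marks nucleosomes at active enhancers and promoters, and dense groups of such enhancers are known in many cell types to lie near genes that define the cell. JunB is a subunit of AP-1, a dimer of basic leucine zipper proteins of the Jun and Fos families that binds the palindrome-like sequence TGACTCA, read TGAGTCA on the other strand. In MuSCs, AP-1 genes are known for their early response to isolation and injury, Notch signalling keeps the cells quiescent through Rbpj and the Hey factors, and Myf5 and Myod1 drive commitment to the muscle lineage.

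The 8 windows of 107 bases printed here show what a JunB site with an AP-1 sequence inside a large cluster looks like. They are the first 8, by size of the cluster, of the sites where JunB peaks of all 4 libraries overlapped, a TGACTCA or TGAGTCA lay within 50 bp of at least 1 JunB summit and inside the H3K27ac peak, and the window met no exon. Each line gives the protein-coding gene nearest to the cluster and the mm10 position, the plus strand is printed 5′ to 3′ from the RefSeq sequence of GRCm38, and capitals mark the AP-1 sequence.
Gipc2, first site, chr3:152048097-152048203: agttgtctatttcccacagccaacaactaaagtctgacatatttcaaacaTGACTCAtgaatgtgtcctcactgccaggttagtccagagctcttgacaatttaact
Gipc2, second site, chr3:152054290-152054396: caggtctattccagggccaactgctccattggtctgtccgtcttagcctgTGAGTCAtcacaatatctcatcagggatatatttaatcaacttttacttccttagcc
Irf2bpl, chr12:86833899-86834005: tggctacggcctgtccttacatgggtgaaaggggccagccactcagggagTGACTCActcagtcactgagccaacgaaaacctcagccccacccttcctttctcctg
Gsdmc, chr15:63036328-63036434: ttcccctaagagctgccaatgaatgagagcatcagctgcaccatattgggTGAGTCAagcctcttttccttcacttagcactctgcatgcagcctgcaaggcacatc
Itga8, chr2:12325529-12325635: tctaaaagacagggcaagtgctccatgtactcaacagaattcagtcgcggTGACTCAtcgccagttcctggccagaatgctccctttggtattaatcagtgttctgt
Tnxb, chr17:34693203-34693309: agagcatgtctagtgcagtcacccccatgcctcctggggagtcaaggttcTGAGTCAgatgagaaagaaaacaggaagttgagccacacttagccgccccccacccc
Vps13c, chr9:68045180-68045286: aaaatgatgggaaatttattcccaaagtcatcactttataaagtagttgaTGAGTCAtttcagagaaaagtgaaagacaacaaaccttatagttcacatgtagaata
Pknox2, chr9:37047516-37047622: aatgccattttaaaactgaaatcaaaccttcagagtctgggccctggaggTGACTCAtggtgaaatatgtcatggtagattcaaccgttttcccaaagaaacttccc

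Among these 8 sites, the summit of the Gsdmc site lay 1, 17 and 3 bp from the centre of the AP-1 sequence in young 1, young 2 and young 3, and 152 bp away in the aged library. At the Vps13c site the 4 distances were 20, 8, 45 and 55 bp, so every library placed its summit close to the sequence. The Irf2bpl site was the widest, with 30 and 116 bp in young 2 and young 3 but 545 and 566 bp in young 1 and the aged library. JunB fold enrichment, the pileup at a summit over the local background of its own library, was 14.6, 12.3 and 14.2 at the Vps13c site in young 1, 2 and 3, and 6.89 in the aged library. At the first Gipc2 site it was 10.7, 10.04 and 12.6 in young 1, 2 and 3, and 4.67 in the aged library, and at the Tnxb site 13.4, 12.3, 9.19 and 9.64. Fold enrichment is relative to each library, so these values were not compared between libraries.

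The large clusters made up 3.07% of the distal clusters and held 2272 of 23436 distal H3K27ac peaks, 9.69%, and 2.17 Mb of peak sequence, 11.5% of the distal total. Their summed peak length ran from 3222 to 17415 bp with a median of 3934 bp, and their span from 8288 to 132902 bp with a median of 23825 bp. Most, 351 of 500, held 3 to 5 peaks, 36 held 2 peaks and 4 held more than 10. Among the other clusters, 11708 held a single peak. These sizes are what chose the clusters and are given as a description. The boundary fell in a continuous range, with sums of 3224 and 3222 bp just inside and of 3222 and 3220 bp just outside, and the tie was settled by position. The plot of summed length against rank shows no step at the boundary.

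**Figure D1:**
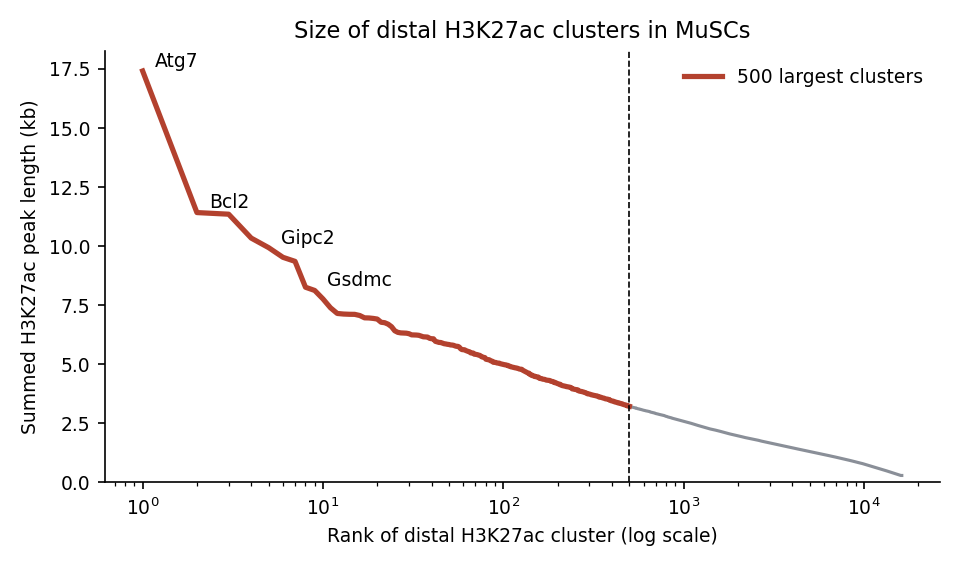
Summed H3K27ac peak length in kb of the distal clusters (y axis) against their rank on a log axis (x axis), for 16290 clusters, thinned at high ranks. The red part marks the 500 large clusters, from 17415 bp at Atg7 to 3222 bp at rank 500 (dashed line), and the curve falls smoothly through that line.

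Peaks within the large clusters were wider than the other distal peaks, with a median of 852 against 705 bp. Their median fold enrichment was lower, 3.22 against 3.58, and their median −log10 p was higher, 11.8 against 10.1. Fold enrichment is a ratio to local background, and peak heights are not given. The best peak of a large cluster had a fold enrichment between 2.21 and 8.13 with a median of 4.27, against a median of 3.79 for the other clusters. The large clusters held a median of 4 peaks and the other clusters 1, and the highest of more peaks tends to be larger. The contrast of best peaks was not separated from the number of peaks. Peak width was part of the sum that chose the clusters, so the width difference is given as a description. The peaks covered a median of 17.5% of the span, so that most of a large cluster lay between its distal peaks. H3K27ac peaks within 3 kb of a TSS had been left out, so these gaps can hold acetylated promoters. Base composition was close to that of the other clusters, with 46.4% against 45.7% GC and 15.6% against 15.2% of bases soft-masked as repeats.

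The cluster with the largest sum lay beside Atg7, which encodes the E1-like enzyme of autophagy, on chr6:114496671-114629572, and was unlike the rest. It held 35 peaks over 132902 bp, 58.7% GC and 81.8% soft-masked sequence, and none of its peaks exceeded a fold enrichment of 4.02. A JunB peak met it once in young 1 and once in young 2, and never in young 3 or the aged library. The rank 117 cluster near Adgrf2 had 79.0%, and the rank 134 cluster, 84.8 kb from its nearest gene Gm21119, had 61.0%. They were the only others more than 50% soft-masked, and 10 of the 500 exceeded 35%. The share of clusters with JunB, the JunB densities and differences, the AP-1 values and the satellite cell and SASP counts were also computed without those 10.

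After Atg7 the largest clusters were those near Bcl2, the anti-apoptotic founder of its family, with 10 peaks and 11422 bp inside the gene body, near the predicted gene Gm21119 with 11353 bp, near Zfp36l2, a factor of AU-rich mRNA decay, with 13 peaks and 10342 bp, and near Gipc2 with 9 peaks and 9936 bp. They were followed by Irf2bpl with 9528 bp, by a cluster over parts of Fam53b, Fgfr2 and Lhpp with 9357 bp, by Tes3-ps with 8262 bp, and by a cluster 727 kb from its nearest protein-coding TSS, that of Gsdmc, with 8125 bp. The same Gsdmc cluster lay 1048 kb from Myc on its other side. Kremen1, a receptor of the Wnt antagonist Dickkopf, followed with 7767 bp, then the endocytic receptor gene Cubn with 7394 bp and Bmper, which encodes a BMP-binding secreted protein, with 7152 bp. The list of 15 closed with Gm10192, Vps13d and Map3k7, the kinase TAK1, at 7127, 7117 and 7114 bp. The TSSs of these last genes lay 145, 8.73 and 308 kb from their clusters, and that of Zfp36l2 61.2 kb. Names in this list give the nearest protein-coding gene at any distance. JunB peaks were present in all 4 libraries in 6 of these 15 clusters, those of Zfp36l2, Gipc2, Irf2bpl, Gsdmc, Kremen1 and Cubn, while those of Bmper, Gm10192 and Vps13d carried none. Presence was counted per cluster, and in the Zfp36l2 cluster no JunB position was shared by all 4 libraries.

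Of the 500 clusters, 299 overlapped the body of a protein-coding gene, 59.8% against 52.8% of the other clusters, and 32 had a protein-coding TSS within their span. The median distance to the nearest protein-coding TSS was 24990.5 bp against 29898.5 bp for the other clusters, and 96 clusters, 19.2%, were more than 100 kb from any. The large clusters spanned a median of 23825 bp and the other clusters 972.5 bp. A longer span meets more gene bodies and reaches closer to a TSS, so these contrasts were not separated from size. The 500 clusters had 437 distinct nearest genes, of which 9 were nearest to 3 or more clusters. Gm5148 was nearest to 4 clusters, at 45, 150.4, 179.1 and 227.9 kb, and all 4 carried JunB peaks in every library. The closest of these clusters lay 129 kb from Spry1, an inhibitor of receptor tyrosine kinase signalling known for its part in MuSC quiescence. Mki67 was also nearest to 4 clusters, at 162, 205, 281 and 331 kb, and JunB was present in all 4 libraries in the clusters at 205 and 331 kb and in no library in the others. Jag1, a Notch ligand, was nearest to 3 clusters at 306, 458 and 490 kb, Nfib to 3 at 32.8, 325 and 406 kb, and Bmper, N6amt1, Nr3c2, Pik3r1 and Tprg to 3 each.

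**Figure D2:**
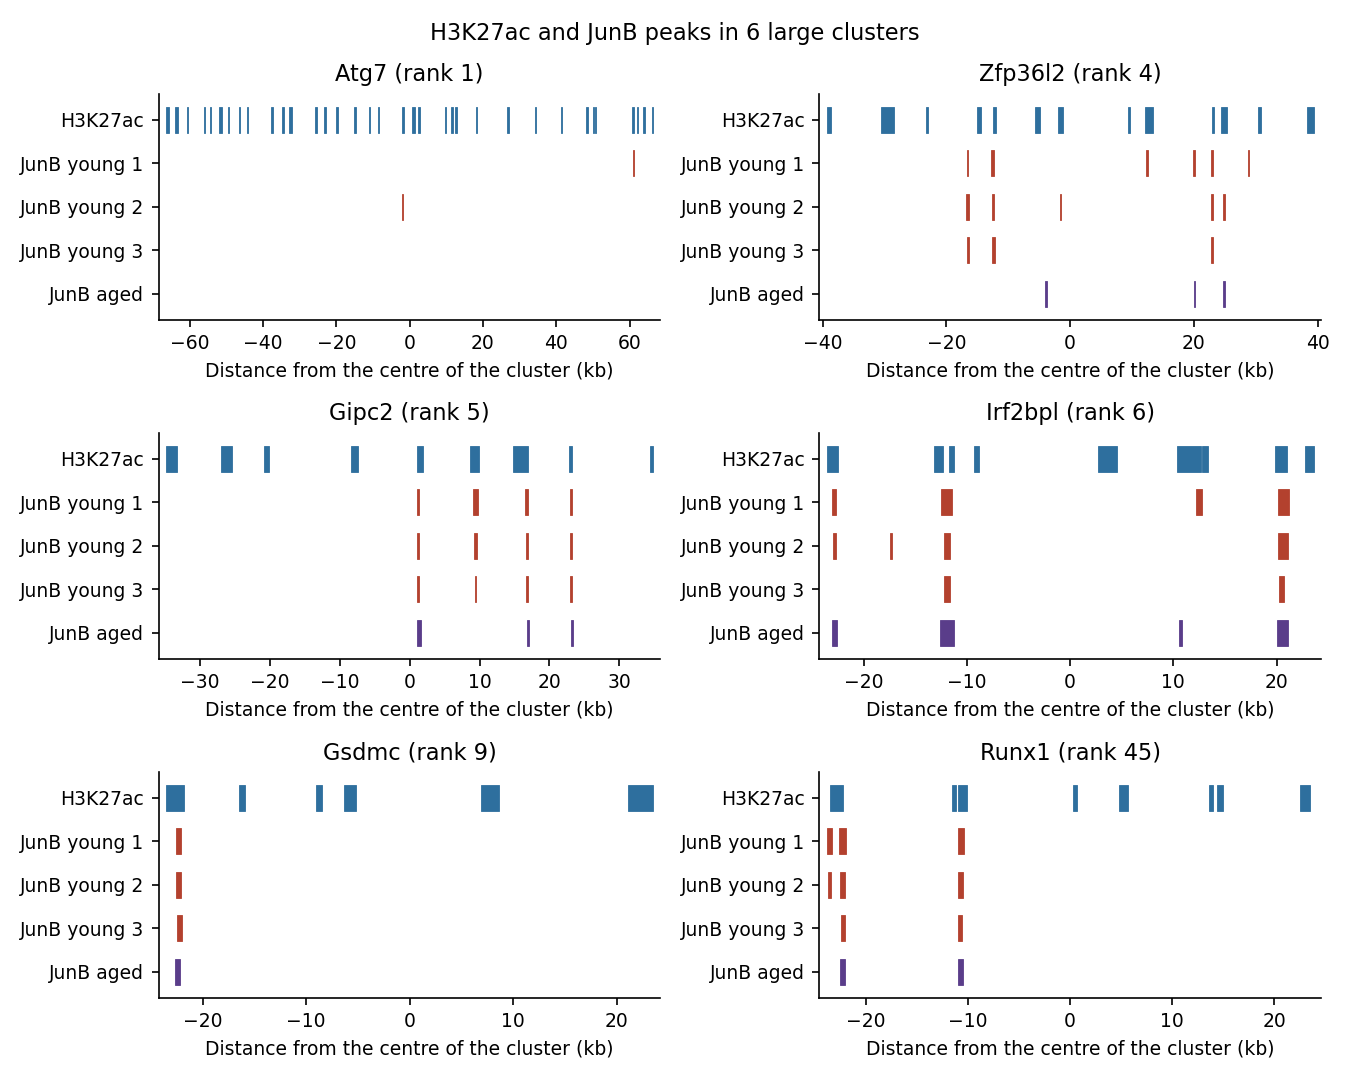
H3K27ac peaks (blue) and JunB peaks of the young (red) and aged (purple) libraries in 6 large clusters, drawn to scale by distance in kb from the centre of each cluster. The Gipc2 cluster held 4 JunB peaks in each young library and 3 in the aged library, all in its right part, the Gsdmc cluster a single JunB position shared by all 4 libraries, and the Atg7 cluster 35 H3K27ac peaks with 1 JunB peak in young 1 and 1 in young 2.

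JunB peaks lay in a large share of the large clusters in every library. A JunB peak overlapped a H3K27ac peak of 223 of the 500 clusters in young 1, 44.6% (95% exact binomial interval 40.2 to 49.1), where the share over all 16290 clusters was 13.8%. In young 2 it was 163 clusters, 32.6% (28.5 to 36.9) against 9.12% over all clusters. In young 3 it was 139 clusters, 27.8% (23.9 to 32.0) against 7.48%. In the aged library it was 243 clusters, 48.6% (44.1 to 53.1) against 15.4%. The order of the libraries followed the length of their peak lists, which held 9534, 4884, 3863 and 14123 peaks. The intervals cover the counting of clusters only.

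**Figure D3:**
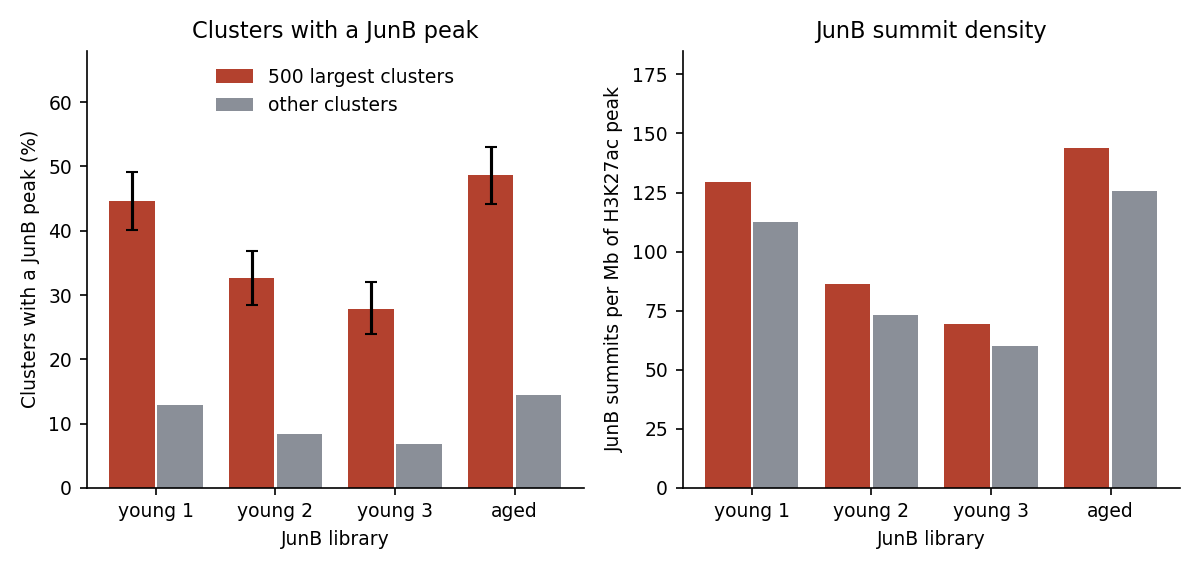
Left, percent of the 500 large clusters (red, with 95% exact binomial intervals) and of the other distal clusters (grey) with a JunB peak in each library. Right, JunB summits per Mb of H3K27ac peak in the same groups: the shares differ by 34.2 points in the aged library and by less in the young ones, while the densities differ by a ratio of 1.15 to 1.18.

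Across the 4 libraries, 108 of the 500 clusters, 21.6%, carried a JunB peak in all 4, against 5.30% of all clusters, and 296, 59.2%, carried 1 in at least 1 library, against 20.3% of all clusters. The remaining 204 had none. Presence was counted per cluster, so the JunB peaks of different libraries need not lie at the same position. Of the 296, 54 carried JunB in the aged library alone and 53 in young libraries alone, 18.2% and 17.9%, where these shares were 26.2% and 24.7% among the other clusters with JunB. A cluster with more peaks has more places for a JunB peak, so these shares were not separated from size. Within the large clusters the share was lower among the smallest than among the largest: of each 100 clusters, from the largest to the smallest, 53, 49, 41, 48 and 32 carried a JunB peak in young 1, and 58, 49, 44, 50 and 42 in the aged library.

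Since the rule gives these clusters more sequence than the others, JunB was also counted per length. The density of JunB summits in the H3K27ac peaks of the large clusters was 129.6, 86.2 and 69.2 per Mb in young 1, 2 and 3, and 112.6, 73.1 and 60.1 per Mb in the other clusters. The ratio was 1.15, 1.18 and 1.15, a mean of 1.16 ± 0.017 (SD, n = 3), and 1.15 in the aged library, with 143.9 against 125.5 per Mb. It was above 1 in 3 of 3 young libraries, with a two-sided exact permutation p = 0.25, which is the smallest that 3 libraries allow. With only the 250 largest clusters the ratio was 1.02.

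A H3K27ac peak of a large cluster overlapped a JunB peak in 13.95%, 9.38% and 7.35% of cases in young 1, 2 and 3 and in 15.1% in the aged library. Compared within 5 bins of peak width, this share exceeded that of equally wide peaks of other clusters by 2.69, 2.08 and 1.45 percentage points, a mean of 2.07 ± 0.62 (SD, n = 3; exact permutation p = 0.25), and by 2.39 points in the aged library. The mean was 1.09 points with the 250 largest clusters and 3.68 points with a stitching gap of 5 kb, and remained above 0 in both. Among the widest peaks, over 1149 bp, 17.8% of peaks in large clusters and 16.0% of the other peaks overlapped a JunB peak in young 1, and the aged library gave 20.4% and 18.5%. JunB peaks inside the large clusters were about as strong as those in other distal clusters, with a median fold enrichment of 6.23, 8.02 and 8.60 against 6.14, 8.09 and 8.49 in young 1, 2 and 3 and 5.19 against 5.39 in the aged library.

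Within a cluster JunB summits were denser in the distal H3K27ac peaks than between them. The gaps include any H3K27ac peak left out for lying within 3 kb of a TSS. The 10.9 Mb of gaps between the peaks of the large clusters held 116, 65 and 45 JunB summits in young 1, 2 and 3 and 121 in the aged library, against 281, 187, 150 and 312 in the 2.17 Mb of peaks. Per Mb, peaks held 12.2, 14.5, 16.8 and 13.0 times as many summits as gaps. The JunB summit lay a median of 209, 206, 215 and 212 bp from the H3K27ac summit of its peak in young 1, 2 and 3 and the aged library. In the other clusters, whose peaks were narrower, these medians were 152, 145, 152 and 147 bp.

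The large clusters differed widely in their JunB load. Gipc2, the cluster on chr3:151996576-152066261, carried 4, 4 and 4 JunB peaks in young 1, 2 and 3 and 3 in the aged library, with 8 AP-1 sequences in its 9 H3K27ac peaks. The cluster near Errfi1, an inhibitor of the EGF receptor, carried 6, 4, 1 and 3 JunB peaks on chr4:150771916-150820943 with a single AP-1 sequence. The cluster on chr17:70720142-70749035, 60.0 kb from its nearest gene Dlgap1, carried 4, 3, 3 and 4, and Irf2bpl, on chr12:86789942-86837125, carried 4, 3, 2 and 4. The clusters near Usp44, a deubiquitinase, Sept9, a septin, and Lhfp each carried 3 JunB peaks in every library. Zfp36l2 carried 3, 4, 2 and 1, Runx1, a transcription factor gene, 3, 3, 2 and 2, and Tnxb, which encodes the matrix protein tenascin X, 3, 2, 2 and 3, a load shared by the smaller clusters near Creb3l2 and Tln2. Zfp36l2 and Runx1 had no AP-1 sequence in any of their H3K27ac peaks.

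The aged library gave 13.6 percentage points more large clusters with JunB than the mean of the young libraries, 48.6% against 35% ± 8.65 (SD, n = 3). There is 1 aged library, so the difference was not tested. The other clusters gave 14.4% against 9.35% ± 3.10 (SD, n = 3), an aged to young ratio of 1.54 where that of the large clusters was 1.39. The peak lists had not passed the same threshold, since their lowest −log10 p was 3.01 in young 1 and in the aged library, 5.33 in young 2 and 5.22 in young 3. With the 3863 strongest peaks taken from each library the direction turned, with 29.2%, 26.8% and 27.8% of the large clusters in the young libraries, a mean of 27.9% ± 1.21 (SD, n = 3), and 21.4% in the aged library. With all lists limited to a −log10 p of at least 5.33, the aged library stood 7.67 points above the young mean. Age, list length and threshold cannot be told apart in these libraries.

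Overlapping JunB peaks of the 4 libraries formed 460 regions in the large clusters, of which 127 were found in all 4 libraries, 111 in the aged library alone, 74 in a single young library, and 38 in at least 2 young libraries and not in the aged one. The share found in all 4 libraries was 27.6%, against 24.2% of the 3303 regions in other clusters. The share in the aged library alone was 24.1% against 27.3%, and in a single young library 16.1% against 17.2%. For at least 2 young libraries and not the aged one it was 8.26% against 8.51%.

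Inside the large clusters, H3K27ac peaks with an AP-1 sequence carried JunB more often than peaks without it in every library. Among the 2272 peaks of the large clusters, 432 held TGACTCA or TGAGTCA, 19.01%, against 17.9% of the other distal peaks. A JunB peak overlapped 38.2%, 26.4% and 22.0% of the 432 peaks in young 1, 2 and 3, and 8.26%, 5.38% and 3.91% of the 1840 peaks without the sequence. The difference averaged 23.0 ± 6.18 points (SD, n = 3), was present in 3 of 3 young libraries (exact permutation p = 0.25), and was 27.6 points in the aged library, with 37.5% against 9.89%. Peaks with the sequence were wider, with medians of 1085 and 807.5 bp, and within 5 bins of width the differences were 29.5, 20.5 and 17.7 points in young 1, 2 and 3 and 26.2 points in the aged library. A contrast between large and other clusters was seen both without and with the sequence. Without it, the shares with JunB were 8.26%, 5.38% and 3.91% against 6.48%, 3.71% and 2.84% in young 1, 2 and 3. In the aged library they were 9.89% against 7.91%. Whether the contrast differed with the sequence was not tested. Peaks with the sequence carried JunB more often in the large clusters than in the others in every library, by 7.94 ± 2.75 points over the young libraries (SD, n = 3; exact permutation p = 0.25) and by 9.92 points in the aged library. These peaks were wider than their counterparts in the other clusters, with medians of 1085 and 907.5 bp, and within 5 bins of width the difference was 6.73 ± 2.64 points over the young libraries (SD, n = 3; exact permutation p = 0.25) and 8.09 points in the aged library.

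**Figure D4:**
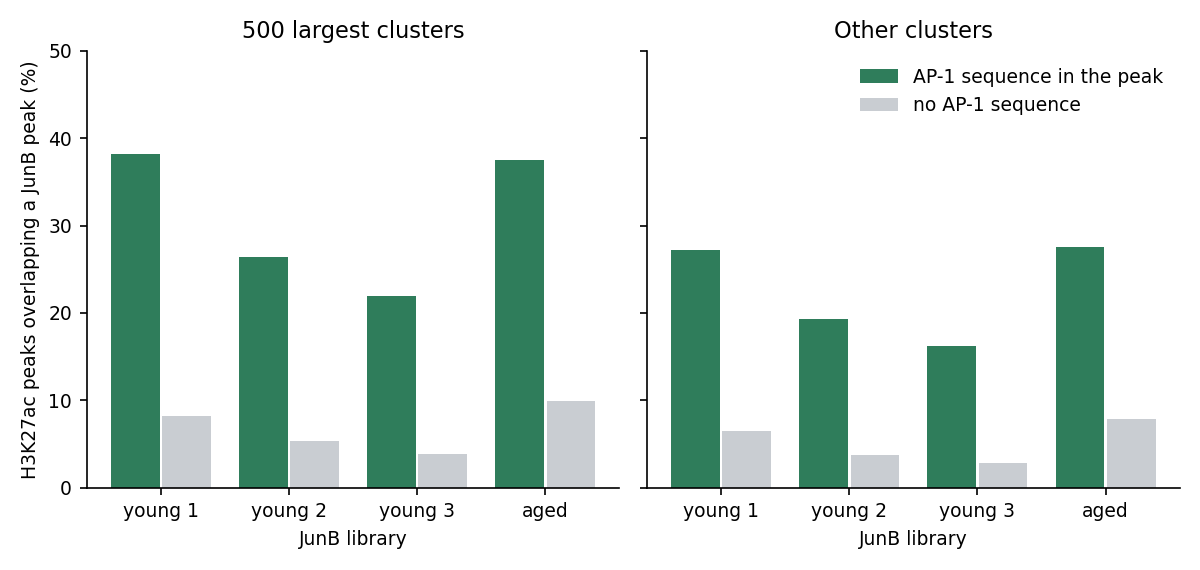
Percent of H3K27ac peaks that overlap a JunB peak (y axis) in each JunB library (x axis), for peaks with (green) and without (grey) an AP-1 sequence, in the large clusters (left) and the other distal clusters (right). In the large clusters peaks with the sequence stand at 22.0 to 38.2% and peaks without it at 3.91 to 9.89%.

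The same relation was seen by cluster. An AP-1 sequence was present in the peaks of 80.6% of the 108 clusters with JunB in all 4 libraries, of 65.4% of the 188 clusters with JunB in 1 to 3 libraries, and of 47.1% of the 204 clusters without JunB. The median number of peaks was 5, 4 and 4 in these classes and the median summed length 4012, 3945 and 3923 bp, so that clusters with JunB were slightly larger. Most JunB summits were nevertheless not at an AP-1 sequence: within 50 bp of the summit it was present in 7.12%, 10.7% and 10% of summits in the large clusters in young 1, 2 and 3, in 5.77% in the aged library, and in 5.30%, 4.82%, 6.65% and 3.90% in the other clusters. The difference averaged 3.68 ± 2.05 points (SD, n = 3; exact permutation p = 0.25) and the intervals of the 2 groups overlapped in 3 of the 4 libraries. With a stitching gap of 5 kb it was 0.37 points, above 0 in 2 of 3 young libraries (exact permutation p = 0.75). Of the 127 JunB regions common to the 4 libraries, 26 had the sequence within 50 bp of at least 1 summit, 20.5%, against 14.0% of 800 such regions in other clusters. A region holds summits of all 4 libraries and so has more chances than a single summit. These shares are therefore not comparable with the shares per summit.

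AP-1 sequences were less dense in the large clusters than in the others. They held 504 copies, 232 per Mb of H3K27ac peak against 262 per Mb in the other clusters, a ratio of 0.89 with a 95% interval of 0.81 to 0.97 from the counts. The E-box CAGCTG, read by the myogenic factors, stood at 994 against 1021 per Mb (ratio 0.97, 0.93 to 1.02), the TEAD sequence GGAATG at 670.0 against 683 (0.98, 0.93 to 1.04) and the RUNX sequence TGTGGT at 823 against 814 (1.01, 0.96 to 1.06), counted on both strands. The intervals cover counting error only.

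Genes were counted as near a large cluster where a TSS lay within 50 kb of its span, which held for 524 of 21728 protein-coding genes, 2.41%. Of 20 Notch pathway genes, 4 were near a large cluster. Rbpj, the DNA-binding partner of Notch, had a TSS within the rank 245 cluster on chr5:53450509-53491281, which held 5 H3K27ac peaks and carried 1, 1, 1 and 2 JunB peaks in young 1, 2 and 3 and the aged library. Maml2, a coactivator of Rbpj, lay 17.7 kb from the rank 198 cluster within its own gene body, with 1, 0, 0 and 2 JunB peaks. Notch1 lay 8.70 kb from the rank 468 cluster and Hey1, a Notch target that represses transcription, 45.2 kb from the rank 436 cluster, and neither cluster carried JunB in any library.

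Hey1 was also the only gene near a large cluster among 26 satellite cell genes. No member of the 26 myogenic factor genes, the 14 AP-1 genes, the 20 sarcomere genes, the 16 senescence and cell cycle genes or the 12 liver and neuron genes was near a large cluster. The 2.41% of all genes corresponds to less than 1 gene in each of these lists. Pax7, the defining factor of satellite cells, had a distal cluster within 50 kb, at rank 8834 with 884 bp, and Myod1 had 1 at rank 5788 with 1206 bp that carried 2, 1, 1 and 1 JunB peaks. Junb itself had no distal cluster within 50 kb.

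**Figure D5:**
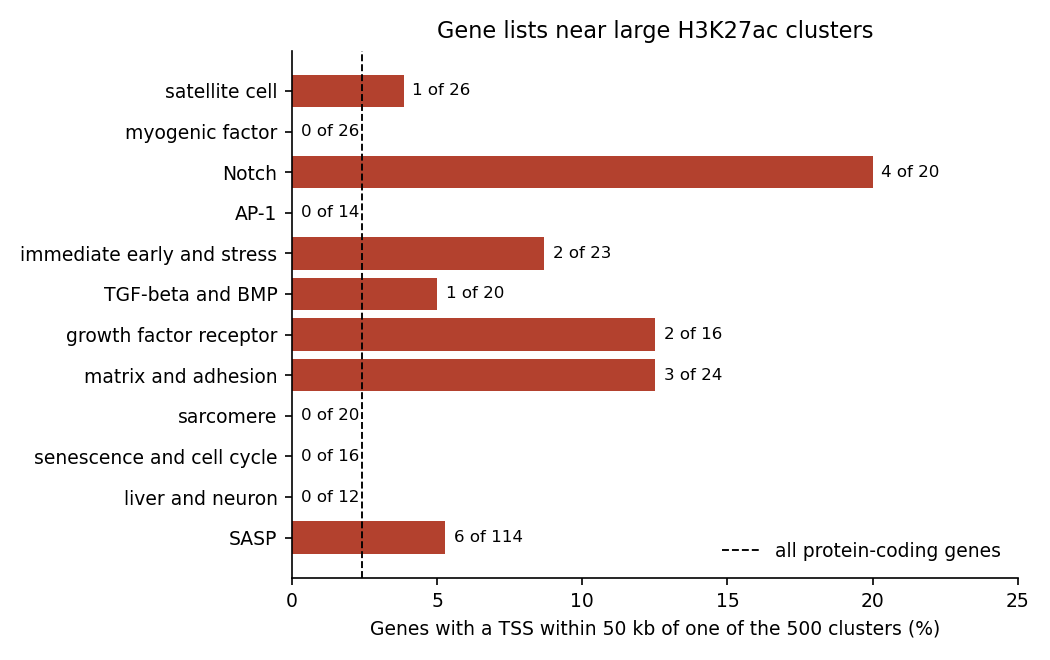
Percent of each gene list with a TSS within 50 kb of a large cluster (bars, with the number of genes of the list), beside the 2.41% of all protein-coding genes (dashed line). Notch genes stand at 4 of 20 and SASP genes at 6 of 114, and 5 of the 12 lists hold no gene.

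Among signalling and matrix genes, Egfr lay 17.4 kb from the rank 111 cluster within its own body, with 8 H3K27ac peaks and 1, 1, 0 and 3 JunB peaks, and Igf1r 44.5 kb from the rank 219 cluster, without JunB, as 2 of 16 growth factor receptor genes. Sparc, Col6a3 and Hspg2, which encode the matrix proteins osteonectin, a chain of collagen VI and perlecan, were 3 of 24 matrix and adhesion genes. The Sparc cluster, at rank 89 with 6 H3K27ac peaks, carried 1, 0, 0 and 2 JunB peaks, that of Hspg2 1, 0, 0 and 2, and that of Col6a3 0, 0, 0 and 1. Klf4 and Gadd45a were 2 of 23 immediate early and stress genes, and the Gadd45a cluster carried 2, 2, 2 and 1 JunB peaks while that of Klf4 carried 1 in the aged library alone. Bmp6, 13.9 kb from the rank 344 cluster, was the 1 of 20 TGF-beta and BMP genes, with 1 JunB peak in every library.

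Of the 114 genes of the study's list of the senescence-associated secretory phenotype (SASP), the factors that senescent cells secrete, 6 were near a large cluster, 5.26% against 2.41% of all genes. They were Egfr and Bmp6 (above), Egf, the chemokine genes Ccl24 and Ccl27b, and Il12a, a subunit of interleukin 12. The Il12a cluster, 6.39 kb from the TSS, carried 1, 1, 1 and 3 JunB peaks. The Ccl24 cluster, 38.9 kb from Ccl24 and 7.96 kb from its nearest gene Hip1, carried 1 in every library. The Ccl27b cluster carried 1 in the aged library alone, and the Egf cluster none. In all, 4, 4 and 3 of these 6 genes had JunB in a nearby large cluster in young 1, 2 and 3, and 5 in the aged library. Among all large clusters, 44.6%, 32.6% and 27.8% carried JunB in young 1, 2 and 3. In the aged library, which had the longest peak list, 48.6% did. The 6 genes were not tested against these shares.

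At 100 kb, which took in 4.41% of all genes, 5 Notch genes, 2 satellite cell genes and 8 SASP genes were near a large cluster. At 250 kb, a distance added after the data were seen and reached by 9.98% of all genes, 6 of 26 satellite cell genes were near a large cluster and 15 of 114 SASP genes. Other lists were also above that share, with 5 of 20 Notch, 5 of 23 immediate early and stress and 3 of 14 AP-1 genes. Matrix and adhesion genes gave 5 of 24, TGF-beta and BMP genes 4 of 20 and sarcomere genes 3 of 20. Myogenic factors gave 3 of 26 and growth factor receptors 2 of 16. None of the 16 senescence and cell cycle genes or 12 liver and neuron genes was that near. Myf5 and Myf6, neighbours in a locus known for enhancers far from the promoters, had the rank 60 cluster 111 and 102 kb away and the rank 240 cluster 124 and 133 kb away, with 6 H3K27ac peaks each and, between them, a single JunB peak, in young 2. Vcam1, an adhesion molecule of satellite cells, was 151 kb from the rank 346 cluster with 1, 2, 1 and 1 JunB peaks. The gene nearest to that cluster was Slc30a7, at 11.9 kb. The SASP gene Il6 was 229 kb from the rank 462 cluster, which carried a JunB peak in young 1, young 2 and the aged library. The gene nearest to this cluster was Dnajb6, at 7.23 kb.

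The promoters of genes next to the large clusters were mostly acetylated. Of 318 nearest genes within 50 kb, 81.8% had a H3K27ac peak within 3 kb of a TSS, against 50.2% of all protein-coding genes. A JunB peak lay within 3 kb of a TSS for 24.8% of them in young 1 against 11.1% of all genes, 16.0% against 7.81% in young 2, 10.4% against 5.95% in young 3, and 41.2% against 24.1% in the aged library. The clusters and the acetylated promoters came from the same H3K27ac list. Genes nearest to the other distal clusters were not counted in this way. Whether these shares are particular to the large clusters was therefore not tested.

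The label of the H3K27ac library was set against cell type markers at promoters. A H3K27ac peak within 3 kb of a TSS was present at 7 of 10 satellite cell markers, Myod1, Vcam1, Cdh15, Itga7, Chodl, Heyl and Megf10, and absent at Pax7, Myf5 and Calcr. It was also present at 3 of 8 fibro-adipogenic, 4 of 8 endothelial, 3 of 6 smooth muscle and pericyte, 2 of 4 Schwann and 2 of 5 myofibre markers, at 1 of 6 immune markers, and at 1 of 12 liver and neuron genes, where the share over all protein-coding genes was 50.2%, so that several of these lists stood near it. No marker of any of these cell types had a TSS within 50 kb of a large cluster. Within 250 kb, which took in 9.98% of all genes, there were 4 of 10 satellite cell markers, 3 of 8 fibro-adipogenic markers (Dcn, Lum and Dpt), 1 of 8 endothelial (Tie1), 1 of 4 Schwann (Ngfr) and 1 of 5 myofibre markers (Myh4), and no smooth muscle and pericyte or immune marker. The part of other muscle cells in the H3K27ac list was not tested.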

How the data were processed

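The data were peak lists of 5 mouse MuSC CUT&RUN libraries. Reads were mapped by the authors with Bowtie2 (mm10), duplicates were removed, and MACS2 called peaks. The study's methods give a p cutoff of 0.001 and its reporting summary a stricter one, and the JunB lists, deposited 1 per library, start at different −log10 p. Versions and a control library are not given in the sources used here. The deposited lists give peak coordinates and summits, a fold enrichment (a ratio to local background), a −log10 p and a −log10 q for each peak, with no read counts, so the depth is unknown. The study's text also ties the H3K27ac data to an epigenome mapping project, so its origin is uncertain.

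TSSs came from GENCODE M21 on GRCm38. H3K27ac peaks outside chromosomes 1 to 19 and X (392 of 39865) and 16037 peaks within 3 kb of a TSS were left out. A JunB peak counted as inside a cluster where it overlapped a H3K27ac peak by at least 1 bp, and a summit where it lay in the peak. Young libraries were compared between large and other clusters by exact two-sided permutation, swapping the groups within a library. The titles mark the young libraries as biological replicates, and the mice behind each are not given. Intervals are exact binomial (95%). The functions were tested on simulated data. Python 3.11.15, numpy 2.4.6, scipy 1.17.1 and matplotlib 3.10.9 were used.

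The clusters and gene lists were chosen with earlier results of these data known. Named genes were the nearest protein-coding genes of the 15 largest clusters and of the 10 with JunB in most libraries and then most JunB peaks (ties by size), those of the clusters whose sequences are printed, genes of the lists near a cluster, and Pax7, Myod1 and Junb. Genes nearest to 3 or more clusters, genes at 250 kb and those of the repeat-rich clusters were named after their values were seen. So were Spry1, Myc, Creb3l2, Tln2, Hip1, Slc30a7 and Dnajb6. Alternatives changed the stitching gap, the TSS set, the ranking, the number of clusters, the H3K27ac and JunB thresholds, the overlap, the motif window, the gene distance and the young libraries used.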

Additional observations from a re-analysis of the deposited data

How the results depend on the processing

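Of 125 recomputed values, 109 kept their direction and their side of the threshold or stayed within the spread, 15 moved and 1 reversed. The aged minus young share of large clusters with JunB, 13.6 points, became -6.53 points with the same number of strongest JunB peaks per library. It was 7.67 points at a common −log10 p threshold, which counted as unchanged, and ran from 10 to 18.4 points without each young library in turn. The young mean share with JunB, 35%, was 23.3% with a gap of 5 kb, 45.7% with 25 kb, and 30.2 to 38.6% without each young library. Satellite cell genes near a large cluster, 1, numbered 5 with a gap of 5 kb, 4 with 25 kb, 2 with protein-coding TSSs only, 0 with 250 clusters, 5 with 1000, 2 with a H3K27ac −log10 q of at least 5, 2 at 100 kb, 2 by nearest gene and 6 at 250 kb. SASP genes, 6, numbered 3 with a gap of 5 kb, 3 with 250 clusters, 10 with 1000 and 15 at 250 kb. A gap of 5 kb left 197 of 500 clusters that shared a peak with the large clusters, and 25 kb left 280. The young means of the density ratio, the width-matched difference and the AP-1 differences, and the ratio of AP-1 copies, kept their direction under every alternative run for them, but the AP-1 difference at summits was 0.37 points with a gap of 5 kb and below 0 in young 3. The smallest exact p that 3 libraries allow is 0.25, so no alternative could pass a threshold, and a tested value could change only by reversing. No paired analysis was possible because there is 1 aged library, which shares fewer than 2 replicate numbers with the young ones. Peaks carry no read counts, so a cluster without a JunB peak was one where none was called.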

Other observations

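The large clusters were not spread evenly over the chromosomes. Chromosome X held 2 of its 426 distal clusters among the 500, 0.469%, and chromosome 16 held 32 of 666, 4.80%, where the share over all chromosomes was 3.07%.

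Of the 9 sequences counted, that of NF-kB, the factor of inflammatory signalling, was denser in the large clusters, with 307 copies, 142 per Mb of H3K27ac peak against 114 per Mb in the other clusters, a ratio of 1.25 (95% interval 1.10 to 1.41 from the counts). It was 1.19 without the 10 clusters over 35% soft-masked and 1.22 without the Atg7 cluster. The MEF2 sequence had 37 copies and a ratio of 0.81 (0.56 to 1.14).

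Among the 10 most repeat-rich large clusters, 4 lay on chromosome 8. Their nearest genes were Gm21119 at ranks 3 and 134, Gm31371 at rank 30, 165 kb away, and Irf2bp2 at rank 391. The peak with the highest −log10 p of all large clusters, 310.2, was in the rank 134 cluster, which was 61.0% soft-masked.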
